A study of Mus musculus with 16 samples.

Results

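The enzymes that make and break down dopamine were examined in mRNA collected with the RiboTag method from dopaminergic neurons of the mouse substantia nigra. The set held 9 genes, chosen by name: Th, Ddc, Gch1, Pts, Spr, Qdpr, Maoa, Maob and Aldh2. All 9 were found among the 25006 gene identifiers counted, and all 9 were among the 12390 genes with enough counts to be tested. The question was how the transcripts of these enzymes stood relative to each other, whether they varied together from mouse to mouse, and whether they differed in mice in which the gene of the mitochondrial calcium uniporter (MCU) was floxed and Cre was expressed in these neurons.

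Dopamine is made from tyrosine in 2 steps. Tyrosine hydroxylase (Th) is the rate-limiting enzyme, and it needs the cofactor tetrahydrobiopterin, which GTP cyclohydrolase (Gch1), 6-pyruvoyltetrahydropterin synthase (Pts) and sepiapterin reductase (Spr) make in turn and quinoid dihydropteridine reductase (Qdpr) recycles. Aromatic amino acid decarboxylase (Ddc) then turns L-DOPA into dopamine. Breakdown inside the cell starts with the monoamine oxidases of the outer mitochondrial membrane (Maoa and Maob), and their aldehyde product is oxidized further by aldehyde dehydrogenases such as the mitochondrial Aldh2.

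Libraries came from 8 control mice of the genotype DAT-Cre +/- and from 8 mice of the genotype DAT-Cre+/-MCU fl/fl, called MCU-KO, with 1 library per mouse, all labelled as postnatal day 45 and collected 30 days after injection. Every mouse in both groups therefore carried 1 copy of Cre under the dopamine transporter gene Slc6a3 and received an AAV whose Cre-dependent construct encodes a tagged ribosomal protein, whereas only the MCU-KO mice carried the floxed allele. Controls were bred from DAT-Cre and C57/BL6 parents, a different cross from that of the MCU-KO mice, so that line and genotype cannot be told apart. Totals ran from 18999107 to 22016362 counts in control and from 14129527 to 20582204 in MCU-KO mice, and no 2 libraries of a group agreed within counting noise.

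The targeted gene was checked first. Mcu (chr10:59446984-59616692, GRCm38) had 454 ± 274 normalized counts in control mice (SD, n = 8), with a lowest value of 120, a median of 401 and a highest of 828. In MCU-KO mice it had 200 ± 139 (n = 8), from 5.82 through a median of 246 to 410. The groups overlapped, and the log2 fold change of -1.19 (95% confidence interval -2.41 to 0.04) did not pass the test (edgeR's quasi-likelihood test, adjusted p = 1.00 with Benjamini-Hochberg over all genes tested). Counts over a whole gene also include reads from any exon outside the floxed segment. The paper checked the knockout by quantitative PCR and by calcium imaging. It reports less Mcu in RiboTag mRNA and a smaller mitochondrial calcium response in MCU-KO neurons. Its supplement also shows RNA-seq levels of MCU complex components.

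The labelled cell type was checked against marker transcripts. All 13 dopaminergic identity genes were detected in all 16 mice, summing to 7688 to 10702 CPM (counts scaled to library size) in control and 6309 to 10132 CPM in MCU-KO mice. Glial transcripts were carried along: 21 astrocyte, oligodendrocyte and microglia genes summed to 3281 to 6402 CPM in control and 3986 to 7764 CPM in MCU-KO mice, and none was at 0 in every mouse. By list, astrocyte genes summed to 330.0 to 912 CPM over both groups, oligodendrocyte genes to 2881 to 6638, microglia genes to 49.8 to 260.4, endothelial genes to 11.8 to 60.9 and GABAergic genes to 78.5 to 276. Markers of other monoamine neurons were low, at most 15.9 CPM for the serotonergic and 3.35 CPM for the noradrenergic list. For scale, the mean of Maob in control mice was 14.6 CPM. None of these lists held a gene past the threshold between genotypes.

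Th was the most abundant of all genes tested of known exon length when counts were scaled to that length. Levels between genes are given here as CPM per kilobase of merged exon sequence, since a longer transcript collects more reads. Th (chr7:142892752-142931128, minus strand) stood at 2512 ± 374 CPM per kb in control mice (n = 8), ranging from 2002 through a median of 2508 to 3117. In MCU-KO mice its level was 2415 ± 528, from 1778 through 2298 to 3178, a range that encloses that of the control mice. Ddc (chr11:11814101-11898144, minus strand), the second enzyme of the pathway, ranked 86 among 12383 genes with a known length, at 534 ± 57.4 CPM per kb in control and 532 ± 73.5 in MCU-KO mice. Its lowest and highest levels were 433 and 603 in control and 411 and 649 in MCU-KO mice. Th exceeded Ddc in all 16 mice. In bulk material, fewer cells of a type and less RNA per cell cannot be told apart. How much of any enzyme's level came from the glial RNA carried along was not tested.

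The sequences before the starts of Th and of Gch1, the gene of the first cofactor enzyme, are shown because this pair had the highest correlation across mice, as described further on. Each is the 250 bases upstream of the RefSeq start on GRCm38.p6, read 5′ to 3′ on the gene's own strand, at chr7:142899996-142900245 for Th and chr14:47189414-47189663 for Gch1, both minus strand. Capitals mark the searched motifs on either strand: the cAMP response element TGACGTCA, the GC box GGGCGG, the NBRE AAAGGTCA bound by nuclear receptors of the Nr4a family, and the TATA letters TATAAA.
Th: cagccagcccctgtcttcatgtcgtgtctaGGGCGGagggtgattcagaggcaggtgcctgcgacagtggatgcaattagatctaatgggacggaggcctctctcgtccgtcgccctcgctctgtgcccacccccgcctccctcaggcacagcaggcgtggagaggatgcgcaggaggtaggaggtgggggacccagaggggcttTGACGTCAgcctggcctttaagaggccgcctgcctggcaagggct
Gch1: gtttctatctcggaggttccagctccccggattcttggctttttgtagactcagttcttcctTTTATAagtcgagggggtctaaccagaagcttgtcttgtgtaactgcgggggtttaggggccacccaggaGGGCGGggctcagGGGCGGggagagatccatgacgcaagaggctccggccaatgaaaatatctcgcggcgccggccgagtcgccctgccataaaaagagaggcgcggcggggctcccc
The Th window held a cAMP response element beginning 45 bases before the start, letters found in 1.55% of 32851 RefSeq promoter windows of the same length, and a GC box 220 bases before it. The Gch1 window held no exact match to TGACGTCA. It held 2 GC boxes, 118 and 105 bases before the start, and TATA letters on the opposite strand 188 bases before it. Only exact letters were searched, so variant forms of an element were not counted. GC boxes occurred in 32.7% of all windows and TATA letters in 12.4%. The NBRE, present in 1.34% of windows, was in neither of these windows. It did occur in the window before one of the 2 RefSeq starts of Ddc, beginning 73 bases before it and overlapping TATA letters. RefSeq windows were matched for 7 of the 9 genes, all but Maob and Aldh2. A match of letters is a description and shows no binding.

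The cofactor enzymes were spread over a wide range of levels, with the recycling enzyme above the 3 synthetic ones per kilobase of exon. The distance between Qdpr and Gch1 rests on the length scaling, since merged exons cover 1.788 kb in Qdpr and 6.251 kb in Gch1, and in control mice the CPM without it was 382 ± 55.0 for Qdpr and 306 ± 75.1 for Gch1. Qdpr (chr5:45434021-45450236, minus strand) came after Th and Ddc at 214 ± 30.8 CPM per kb in control mice (164 through 219 to 266) and 205 ± 26.5 in MCU-KO mice (168 through 207 to 251). Gch1 (chr14:47153895-47189413, minus strand), which makes the first committed step of cofactor synthesis, had 48.9 ± 12 CPM per kb in control mice (31.6 through 46.8 to 67.0) and 47.5 ± 10.5 in MCU-KO mice (33.5 through 45.6 to 65.4). Control mice 3 and 7 were its lowest and its highest. Spr (chr6:85130176-85137766, minus strand) followed with 27.7 ± 4.78 CPM per kb in control (21.9 through 26.7 to 36.4) and 21.9 ± 3.96 in MCU-KO mice (16.2 through 22.1 to 26.7). Pts (chr9:50521617-50528724, minus strand) had 14.5 ± 3.00 in control (10.7 through 14.6 to 19.3) and 17.1 ± 3.87 in MCU-KO mice (11.8 through 17.2 to 23.0). Within the summed level per kb of these 4 genes, Qdpr took 70.0 ± 4.09% in control and 70.1 ± 5.00% in MCU-KO mice, and Gch1 took 16.1 ± 3.87% and 16.4 ± 4.04%. The share of Spr was 9.13 ± 1.60% in control and 7.48 ± 1.11% in MCU-KO mice, and that of Pts 4.72 ± 0.659% and 5.97 ± 1.64%. The merged lengths of Gch1 and Pts include annotated transcripts of 1 exon, with 3508 and 4211 bases. Levels and shares per kb of these genes depend on whether such transcripts are counted in the length. Part of Qdpr is shared with another gene: an opposite-strand gene, Gm42413, which is absent from the count files, overlaps its exons by 332 bases, and 12% of the 50-base words in its transcripts occur there too. Whether counting used strand is not given in the sources used here, so that the level of Qdpr is uncertain by that overlap.

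Transcripts of the breakdown enzymes were at the lower end of the set, with Maoa close to Pts and Spr and with Aldh2 and Maob lowest. Maoa (chrX:16619698-16687818, plus strand) had 19.1 ± 5.22 CPM per kb in control mice (12.2 through 17.8 to 26.8) and 19.2 ± 8.65 in MCU-KO mice (10.1 through 17.4 to 33.4). The MCU-KO mice spread more widely on both sides. Aldh2 (chr5:121566027-121593824, minus strand) had 12.9 ± 4.32 CPM per kb in control (7.29 through 12.7 to 19.1) and 10.7 ± 2.90 in MCU-KO mice (5.29 through 10.7 to 14.9). Maob (chrX:16709282-16817366, minus strand), the neighbour of Maoa on the X chromosome, was lowest at 5.22 ± 3.52 and 5.37 ± 3.55 CPM per kb. It had 0 counts in control mice 1 and 6 and in MCU-KO mouse 2, which allows up to 3 counts in each, whereas the other 13 libraries held 94 to 530 counts. Of the summed level of the 3 genes, Maoa took 50.8 ± 8.44% in control and 53.9 ± 12.4% in MCU-KO mice, Aldh2 34.6 ± 9.48% and 31.2 ± 6.04%, and Maob 14.6 ± 10.7% and 15.0 ± 10.3%.

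**Figure D1:**
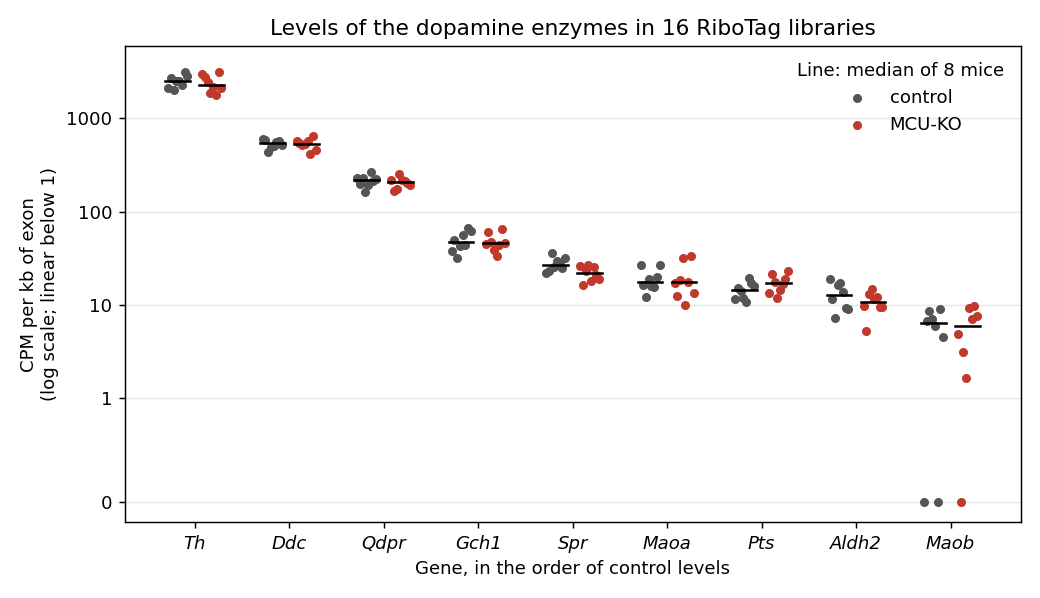
Level of each enzyme transcript in CPM per kilobase of exon on a log axis that turns linear below 1, with 1 point per mouse, control in grey and MCU-KO in red, and black lines at the medians of 8 mice. Th, Ddc and Qdpr keep ranks 1 to 3 in all 16 mice, and 3 mice have no Maob count.

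The order of levels was set in the control mice and then compared between neighbours in the 8 MCU-KO mice, which had no part in setting it. From highest to lowest it ran Th, Ddc, Qdpr, Gch1, Spr, Maoa, Pts, Aldh2 and Maob, and the MCU-KO means gave the same order. Th made up 73.9 ± 2.93% of the summed level in control and 73.3 ± 3.60% in MCU-KO mice, Ddc 15.9 ± 1.94% and 16.4 ± 1.73%. Th, Ddc and Qdpr held ranks 1 to 3 in that order in 16 of 16 mice, Gch1 came next in 15 and Maob lowest in 14. In MCU-KO mice the geometric mean ratio was 4.49 for Th over Ddc, 2.59 for Ddc over Qdpr, 4.37 for Qdpr over Gch1 and 2.16 for Gch1 over Spr. Each of these 4 differences had the same sign in 8 of 8 mice (two-sided exact sign-flip test, p = 0.0078, the smallest it can give, adjusted p = 0.0156 over 8 pairs). Spr over Maoa (ratio 1.22, exact p = 0.156) and Maoa over Pts (1.06, exact p = 0.781) did not pass, so that these 3 genes were not separated there, although Spr over Maoa passed without MCU-KO mouse 7 (exact adjusted p = 0.0417). Pts exceeded Aldh2 1.63-fold in 7 of 8 MCU-KO mice (exact adjusted p = 0.0312) but in 5 of 8 control mice only (exact adjusted p = 0.422). Aldh2 exceeded Maob in 7 of 8 MCU-KO mice (exact adjusted p = 0.025). With 7 mice the smallest exact p is 0.0156, and without MCU-KO mouse 1, 2, 3, 6 or 8 the exact adjusted p was 0.0625 for Pts over Aldh2 and 0.05 for Aldh2 over Maob, and without mouse 7 it was 0.0536 for Pts over Aldh2. The log2 ratio of Pts over Aldh2 stayed at 0.52 to 0.85 without each mouse, against 0.70 with all. That of Aldh2 over Maob stayed at 1.956 to 2.413, against 2.110, except 1.10 without mouse 2, which had no Maob count. The size of several ratios depended on the length used. With the longest transcript as length, the log2 ratio was 1.30 for Th over Ddc (2.17 with merged exons), 2.15 for Ddc over Qdpr (1.38) and 1.95 for Gch1 over Spr (1.11), and without length correction it was 1.25, 2.69 and 1.93. Each of these kept its direction and passed. Qdpr over Gch1 had a log2 ratio of 2.13 with merged exons and 1.67 with the longest transcript, and without length correction they no longer separated (log2 ratio 0.32, exact adjusted p = 0.125). For Gch1 and Pts the longest annotated transcript has 1 exon and is also part of the merged length. It therefore gives no independent length for these genes.

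No enzyme transcript passed the test between genotypes. At an adjusted p under 0.05, edgeR called 0.178% of all 12390 genes tested and 0 of the 9 enzymes (adjusted p = 1.00 for each). DESeq2 and limma-voom also called 0. The paper, which used DESeq2, reports that its RNA-seq did not reveal changes in genes linked to dopaminergic neurotransmission. It gives 9 MCU-KO mice for that comparison, against 8 MCU-KO libraries here. At an unadjusted p under 0.05, 4.41% of all genes and 1 of the 9 enzymes passed, and the normalized counts of the groups did not overlap for 0.258% of all genes and for 0 of the 9. The log2 fold change, MCU-KO over control, was positive for 3 and negative for 6, with a median of -0.04 against 0.00 over all genes. The median of its absolute value was 0.057 for the enzymes and 0.214 for all genes. The genes compared were not matched for abundance, so these medians do not show that the enzymes were more stable than other genes.

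Both enzymes of the main line had narrow intervals. The log2 fold change of Th was -0.06 with a 95% confidence interval of -0.30 to 0.18, or 0.814-fold to 1.14-fold. That of Ddc was -0.01, with an interval of -0.19 to 0.17, or 0.879-fold to 1.13-fold.

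Among the cofactor genes, Spr had the smallest p. Its normalized count was 1886 ± 324 in control mice (1498 through 1824 to 2478) and 1490 ± 267 in MCU-KO mice (1101 through 1501 to 1805). All 8 MCU-KO mice lay below the control median, but the ranges overlapped. The log2 fold change was -0.34 ± 0.15 (SE, 95% confidence interval -0.64 to -0.04) with an unadjusted edgeR p of 0.0295, which did not survive adjustment over all genes (adjusted p = 1.00, and 0.296 to 1.00 over 28 alternatives). The unadjusted p ran from 0.0181 to 0.079 over those alternatives. Pts had a log2 fold change of 0.25 (interval -0.09 to 0.58), Gch1 of -0.04 (-0.35 to 0.27) and Qdpr of -0.06 (-0.27 to 0.15). None of these intervals excluded 0.

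The breakdown genes had wider intervals. The log2 fold change was 0.01 for Maoa (-0.48 to 0.50), -0.27 for Aldh2 (-0.74 to 0.19) and 0.04 for Maob (-1.92 to 2.00). The interval of Maob spans 0.265-fold to 3.99-fold, and the 3 libraries without Maob counts fall in both groups. For the other 8 enzymes the whole interval lay within 1 log2 unit of 0, which held for 51.8% of all genes tested, without matching for abundance. Maoa and Maob are X-linked, and Y-linked transcripts were under 3 counts in 7 of 16 mice, 4 control and 3 MCU-KO. With Y-linked transcripts as a covariate, still 0 enzymes passed. Xist had 0 counts in 12 of 16 libraries and at most 74, so that no correlation with it was computed.

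**Figure D2:**
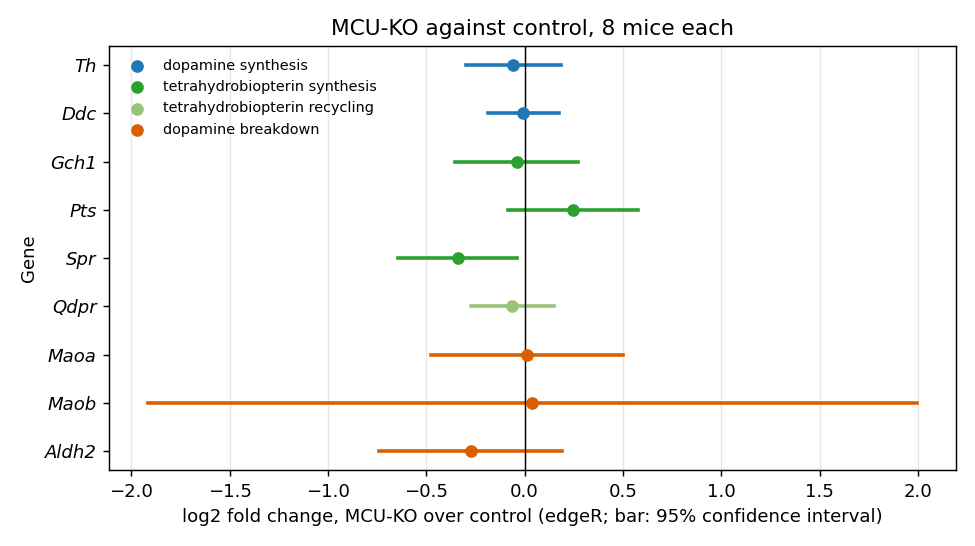
Log2 fold change of each enzyme transcript, MCU-KO over control, from edgeR with 8 mice in each group; points are estimates, bars 95% confidence intervals, and colours the step of the pathway. Only the bar of Spr, from -0.64 to -0.04, stays clear of 0, and that of Maob reaches from -1.92 to 2.00.

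Covariation across mice was examined on log2 CPM centred within genotype, so that a difference between genotypes could not create it. Th and Gch1 had the highest correlation, with Pearson r = 0.77 and Spearman rho = 0.756 over 16 mice (permutation within genotype, p = 0.00041 for r and 0.00078 for rho). This was the single pair of 36 past the threshold when adjusted over the pairs (permutation, adjusted p = 0.0148 for r and 0.0281 for rho). Adjusted over all 12389 genes paired with Th, its permutation p was 0.121, and no gene passed. Without the 2 mice farthest from the median of Th, r was 0.78. Within control mice r was 0.93 (exact permutation p = 0.0013), and within MCU-KO mice 0.69 (exact permutation p = 0.0596). On the 36 pairs, the call was lost without control mouse 3 (r = 0.739, permutation adjusted p = 0.0799), control mouse 7 (r = 0.734, permutation adjusted p = 0.067) or MCU-KO mouse 7 (r = 0.718, permutation adjusted p = 0.0752).

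The 2 other pairs with an unadjusted p under 0.05 did not pass adjustment. Th and Ddc had r = 0.60 and rho = 0.497 (permutation p = 0.0237 and 0.0642, adjusted p = 0.284 and 0.415), and r was 0.34 without the 2 farthest mice. Pts and Aldh2 had r = -0.60 and rho = -0.688 (permutation p = 0.019 and 0.00507, adjusted p = 0.284 and 0.0913), and r was -0.47 without the 2 farthest. Over the 36 pairs, 19 correlations were positive and 17 negative, with a median r of 0.06. Within its own cofactor branch, Gch1 had r = 0.44 with Pts, -0.22 with Spr and -0.38 with Qdpr, none of them past the threshold. Over all genes, 9.31% correlated with Th at an unadjusted permutation p under 0.05, and of the 8 other enzymes Gch1 and Ddc did. In the order of r with Th over 12389 genes, Gch1 ranked 45 and Ddc 279.

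**Figure D3:**
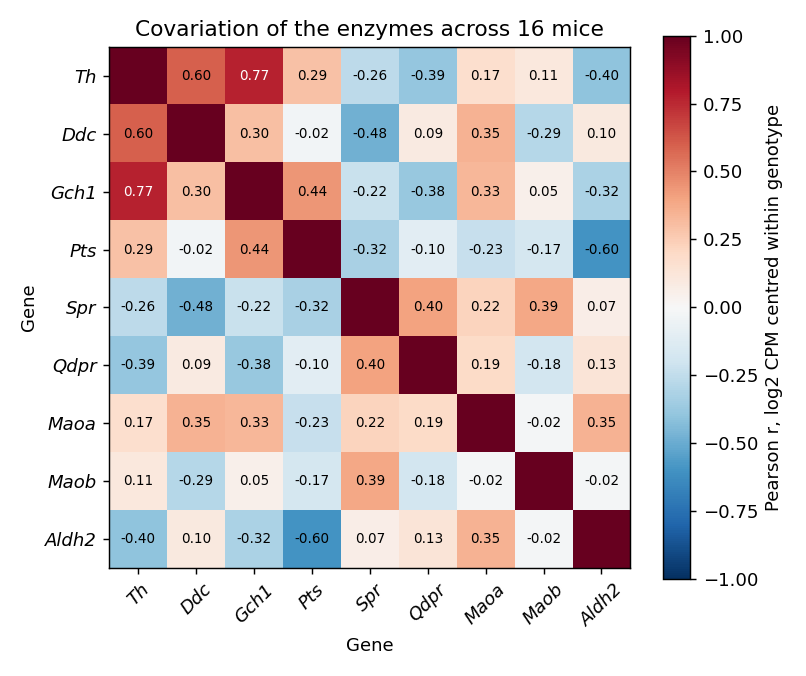
Pearson r between every pair of enzyme transcripts over 16 mice, computed on log2 CPM centred within genotype, from blue at -1 to red at 1. Th with Gch1, at 0.77, is the highest, and Pts with Aldh2, at -0.60, is the lowest.

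The genes most like Th in their course across mice were not enzymes of the pathway. By r over 16 mice they were Gapdh (0.92), a glycolytic enzyme, Dusp26 (0.91), a phosphatase, Hspa8 (0.89), a constitutive chaperone, Eif3i (0.89), a translation initiation factor subunit, and Eno1 (0.88), a glycolytic enzyme. Over all genes the 5th percentile of r with Th was -0.50, the median -0.02 and the 95th percentile 0.49. These values share libraries and normalization, and they are given as a description.

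Glial transcripts moved against Th and Gch1 across mice. The mean log2 CPM of the 21 glial genes ran from 4.72 to 6.12 in control and from 4.81 to 6.57 in MCU-KO mice. Against it, Th had r = -0.79 and rho = -0.756 (permutation p = 0.00063 and 0.00089, adjusted p = 0.00594 for r over 18 relations), with -0.60 in control and -0.92 in MCU-KO mice and -0.70 without the 2 farthest mice. All 21 glial genes had a negative r with Th. Gch1 had r = -0.76 and rho = -0.779 (permutation p = 0.00143 and 0.00135, adjusted p = 0.00858 for r), with -0.82 in control and -0.70 in MCU-KO mice and -0.69 without the 2 farthest, and again all 21 genes had a negative r. When the glial score was regressed out of both, an alternative chosen after the data were seen, r between Th and Gch1 was 0.43 (permutation adjusted p = 0.663), whereas with the dopaminergic score regressed out it was 0.82. The part of glial RNA in the covariation of Th and Gch1 was otherwise not tested. Their log2 fold changes between genotypes with the glial score as a covariate were 0.06 for Th and 0.13 for Gch1, against -0.06 and -0.04 without it.

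Ddc followed the dopaminergic identity genes. Its r with their mean log2 CPM was 0.80 and its rho 0.712 (permutation p = 0.00066 and 0.00294, adjusted p = 0.00594 for r), with 0.61 in control and 0.89 in MCU-KO mice and 0.61 without the 2 farthest, and all 13 genes had a positive r with Ddc. Th had r = 0.53 with the same score (rho = 0.509, permutation p = 0.0756 and 0.0674, adjusted p = 0.272 for r). Against the glial score, Ddc had r = -0.49 (permutation p = 0.0646, adjusted p = 0.272), and 19 of 21 glial genes had a negative r with Ddc. Whether Th and Ddc differed in their relation to either score was not tested. The 3 relations past the threshold among 18 were those of Th and Gch1 with the glial score and of Ddc with the dopaminergic score. The other 6 enzymes passed with neither score. The share of all genes that follow either score was not computed, so these relations cannot be called particular to these enzymes.

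**Figure D4:**
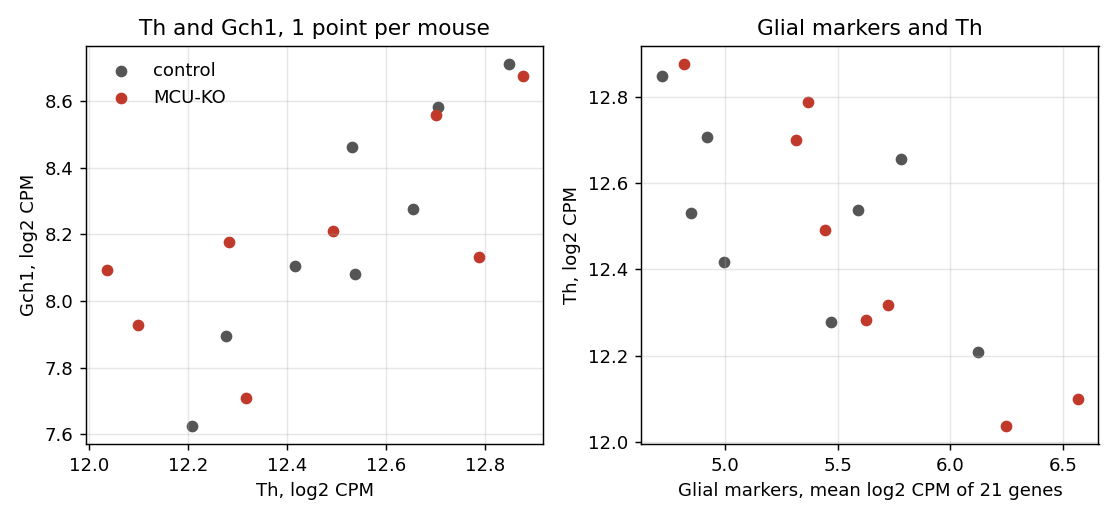
Left, log2 CPM of Gch1 against that of Th; right, log2 CPM of Th against the mean log2 CPM of 21 glial markers, with 1 point per mouse, control in grey and MCU-KO in red. Points climb from lower left to upper right on the left (r = 0.77 after centring within genotype) and fall on the right (r = -0.79), with both genotypes along the same range.

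Other genes of the pathway were also compared between genotypes. Of 27 further genes listed for it, 20 had enough counts to be tested, and 0 passed in either direction at an adjusted p under 0.05 by edgeR, while 1 passed at an unadjusted p under 0.05. Of the 20, 6 had a positive and 14 a negative log2 fold change, with a median of -0.11 against 0.00 over all genes. On the synthesis and cofactor side 9 of 9 genes were tested (2 positive and 7 negative, median -0.12), and on the breakdown side 10 of 11 (3 positive and 7 negative, median -0.13). Of 7 enzymes of other monoamine or amino acid routes, only Tph2, the tryptophan hydroxylase of serotonergic neurons, had enough counts, with 62.8 ± 60.7 normalized counts in control and 77.7 ± 107 in MCU-KO mice. Tph2 had 0 counts in 5 of 16 mice. Pnmt had 0 counts in all 16 libraries, and Dbh, which would turn dopamine into noradrenaline, had 0 in 15.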

How the data were processed

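RNA-seq was analysed from RiboTag immunoprecipitates of 16 mice. The authors trimmed reads (cutadapt in the methods, Trim Galore in the submitters' processing notes), used STAR for alignment to mm10 and obtained gene-level counts from htseq-count, with gene models from Ensembl. The deposited files hold whole-number counts without normalization. Tool versions, annotation release and strand setting are not given in the sources used here. Limits for libraries with 0 counts cover counting error only, whereas the confidence intervals of fold changes include the spread between mice.

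Groups came from the sample labels. Symbols, exons and coordinates came from GENCODE M21 (GRCm38), which named 24942 of 25006 identifiers. Genotypes were compared with edgeR 4.0.16 in R 4.3.3 (filterByExpr, TMM, glmQLFit, glmQLFTest, Benjamini-Hochberg over 12390 genes, threshold 0.05). Normalized counts are counts divided by DESeq2 1.42.0 size factors. Levels were TMM-scaled CPM per kb of merged exons with a pseudocount of 0.5 counts for ratios. Correlations used log2 CPM with a prior count of 2, centred within genotype, and 100000 permutations within genotype (scipy 1.17.1), and exact permutations within 1 genotype. The p-values set each effect against the spread between mice. The genotype and correlation tests were tested on simulated data.

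The genes named were the 9 enzymes, Mcu, of the other pathway genes the one with the smallest p where none passed (not reported here), and the 5 genes with the highest r with Th. Tph2, Pnmt and Dbh were named after their values were seen. Members and lists were chosen with earlier results of these data known. Alternatives were DESeq2, limma-voom (limma 3.58.1), other normalizations and filters, a replicate block, covariates, other lengths and leaving out every mouse once.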

Additional observations from a re-analysis of the deposited data

How the results depend on the processing

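The count of enzymes past the threshold between genotypes stayed at 0 in all 28 alternatives, including the replicate block. The labels do not say whether the mouse numbers pair the samples. Deviations of same-numbered mice correlated at -0.06 to 0.03, which shows no shared deviation but cannot decide whether the mice were paired. The block took the count over all genes from 22 to 14, while DESeq2 gave 90. Estimates near 0 changed sign without passing a threshold. The log2 fold change of Maoa, 0.01, was -0.037 with limma-voom, -0.060 with the replicate block, -0.0060 with the dopaminergic covariate and -0.024 with the Xist covariate, and with the glial covariate Th was 0.055, Ddc 0.044 and Gch1 0.13. Leaving out each mouse in turn, it ran from -0.053 to 0.041 for Ddc, from -0.12 to 0.040 for Gch1, from -0.15 to 0.11 for Maoa and from -0.15 to 0.23 for Maob. Maob reached 0.73 over all its alternatives and was not tested where 10 counts were required in every library. Pts, Spr, Qdpr and Aldh2 kept their direction in all 28.

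The log2 ratio of Maoa over Pts, 0.08, was -0.46 with the longest transcript as length, -0.47 without length correction and -0.11 to 0.20 without each mouse. Without length correction Aldh2 over Maob was 2.99, against 2.11. The number of neighbours that passed, 6 of 8, was 4 to 6 without each mouse. The number of covarying pairs, 1, was 0 within MCU-KO mice, 0 with the glial score regressed out and 0 to 1 without each mouse. The 3 relations to marker scores passed in all 18 alternatives, which were added after the data were seen. The cause of these shifts was not tested. Maob had 3 libraries without counts, which allow up to 3 counts each, and the other enzymes averaged 1220 counts or more per library.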

Other observations

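A few pairs of enzymes with unlike r in the 2 genotypes are given as values, chosen after the 36 pairs in each genotype had been seen. Pts and Qdpr had r = 0.62 in control mice (exact permutation p = 0.103) and -0.84 in MCU-KO mice (exact permutation p = 0.0099). Spr and Aldh2 had r = -0.59 in control (exact permutation p = 0.121) and 0.73 in MCU-KO mice (exact permutation p = 0.023). Ddc and Spr had r = -0.88 in control (exact permutation p = 0.00454) and -0.20 in MCU-KO mice (exact permutation p = 0.629). These p-values are not adjusted, and the differences between genotypes were not tested. Other pairs changed sign without an exact permutation p under 0.05 in either genotype. Spr and Maoa had r = -0.48 in control and 0.63 in MCU-KO mice, and Maob and Aldh2 had -0.51 and 0.69.

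The spread between mice within a genotype was estimated by edgeR's tagwise biological coefficient of variation, beside the trend for genes of like abundance. This coefficient is pooled over both genotypes and drawn toward that trend, so it is not independent of the trend. It was 18.1% for Th (trend 17.1%), 14.5% for Ddc (17.5%), 22.2% for Gch1 (20.2%), 23.8% for Pts (27.2%), 22.0% for Spr (28.3%), 16.1% for Qdpr (19.6%), 33.5% for Maoa (29.3%) and 32.4% for Aldh2 (33.6%). That of Maob was 128% (73.6%), with 3 libraries at 0 counts. The observed coefficient of variation of normalized counts can differ from these estimates. In control and MCU-KO mice it was 17.2% and 17.9% for Spr, 27.5% and 44.5% for Maoa, and 67.3% and 66.2% for Maob.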
